A study of Mus musculus with 2 samples.

Results

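In the Idoxuridine library of this mouse embryonic stem cell series, 129 cells with the highest and 129 cells with the lowest combined level of 4 imprinted genes were compared. The 4 genes were Mest, Peg3, Peg10 and Nnat, all expressed mainly from the paternal allele in mouse. Of the 742 Idoxuridine cells, 648 passed a minimum of unique molecular identifiers (UMIs, one per captured transcript), and 94 shallower cells were left out. The shallowest cell kept held 23504 UMIs. Each cell was scored by the share of its UMIs that fell in the 4 genes. The top 20% of cells are called imprinted-high (high cells, for short) and the bottom 20% imprinted-low (low cells), and 390 cells lay in neither. The 258 cells compared are part of 1553 cells in the series.

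All cells were E14, a male mouse embryonic stem cell line with the strain label C57BL/6. They were grown feeder-free on gelatin in 2i/LIF, which is leukaemia inhibitory factor with 2 kinase inhibitors that hold such cells in a naive pluripotent state. One library came from cells kept for 24 h in Idoxuridine, an iodinated thymidine analogue that enters newly made DNA, and the other from cells kept for 24 h in DMSO, its solvent. The treatment label gives the Idoxuridine dose as 10 µM and a protocol field as 10 mM. The same ranking was applied to the DMSO library, where 152 imprinted-high and 152 imprinted-low cells came from 764 cells above the same minimum. There was 1 library per treatment, cells of a library are not replicates, and no test was possible. Intervals are 95% intervals for counting error only.

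Genomic imprinting is the expression of a gene mainly from the copy inherited from one parent. It rests on DNA methylation laid down in the egg or sperm and kept through the early embryo, when most other methylation is erased. In mouse embryonic stem cells the zinc finger protein ZFP57 keeps these marks by binding a methylated 6-base motif and bringing in the co-repressor TRIM28 (KAP1). Many imprinted genes act in growth of the placenta and fetus. The counts carry no allele information, so a level could not be assigned to a parental copy.

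The marker genes lie on 3 chromosomes (GRCm38, GENCODE M21). Mest, which encodes a hydrolase-family protein, spans chr6:30723547-30748465 on the plus strand. Peg10, a retrotransposon-derived gene needed for the placenta, spans chr6:4747306-4760517 on the plus strand. Peg3, a zinc finger gene, spans chr7:6703892-6730431 on the minus strand. Nnat, which encodes the small membrane protein neuronatin, spans chr2:157560078-157562522 on the plus strand, inside the span of Blcap, which lies on the other strand. All are protein-coding. Start-site sequence is shown for Mest, Peg3 and Nnat because Zfp57, described further on, was among the genes lower in imprinted-high cells. The sequences are from RefSeq on GRCm38.p6, given 5′ to 3′ on the gene's strand, and capitals mark TGCCGC, the ZFP57 motif, or GCGGCA, its other strand.
Mest, the 250 bases before the start, chr6:30737800-30738049, plus strand: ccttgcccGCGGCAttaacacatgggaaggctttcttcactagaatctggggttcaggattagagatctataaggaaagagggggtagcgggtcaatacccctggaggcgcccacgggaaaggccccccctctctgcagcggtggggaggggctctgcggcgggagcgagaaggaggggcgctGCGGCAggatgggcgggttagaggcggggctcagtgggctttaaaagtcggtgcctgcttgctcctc
Peg3 to Usp29, the 163 bases between the starts, chr7:6730420-6730582, minus strand: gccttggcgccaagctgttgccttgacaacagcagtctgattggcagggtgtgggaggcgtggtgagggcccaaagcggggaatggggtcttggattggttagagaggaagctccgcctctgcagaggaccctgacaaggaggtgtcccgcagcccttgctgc
Nnat, a 30-base site just past the start, chr2:157560093-157560122, plus strand: gccaccggggctGCGGCAttgcgcccagca
The stretch printed for Mest held the motif at 2 places, with first bases at -242 and -67 relative to that start. Mest had 3 start windows, and that at chr6:30733256-30733555 held no match. The Nnat site was cut around its match, so that choice fixed its holding the motif, which began 27 bases past the start. No match lay between the starts of Peg3 and Usp29. Over RefSeq windows of 250 bases before to 50 bases after a start, 3813 of 32851 held the motif on either strand (11.6%). Among windows of the other imprinted genes it was in 7 of 32 for the paternally expressed list (21.9%) and 8 of 41 for the maternally expressed list (19.5%). The motif holds a CG, and the median number of CG per window was 7 over all windows, 10 for the paternally and 16 for the maternally expressed list. Enrichment of the motif was not tested. Some genes have several windows, Snrpn and Snurf share a window with a match that is counted for both, and a match describes letters only.

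The score chose the cells, so the levels of its own 4 genes are a description. The marker genes took a median of 0.0620% of UMIs in imprinted-high cells (0.0482% to 0.406%) and 0.0115% in imprinted-low cells (0% to 0.0175%). The last cell inside the imprinted-high side had 19 marker UMIs of 39459 (0.0482%), and the first outside had 36 of 74860 (0.0481%). At the other edge, the last cell inside the imprinted-low side had 7 of 39964 and the first outside had 5 of 28496, both 0.0175% to 3 digits. The edges therefore cut a continuous range. In all, 3957 marker UMIs were counted in imprinted-high cells and 554 in imprinted-low cells.

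Levels are given as UMIs per 1000000 UMIs summed over the cells of a side (CPM). Mest stood at 365 CPM in imprinted-high cells (349 to 382) and 65.5 CPM in imprinted-low cells (58.6 to 72.9), a log2 ratio of 2.48. For Peg3 the levels were 103 CPM in imprinted-high (94.4 to 112) and 9.29 CPM in imprinted-low cells (6.83 to 12.4), and the log2 ratio was 3.47. Peg10 had 192 CPM in imprinted-high (181 to 204) and 20.8 CPM in imprinted-low cells (17.0 to 25.1), with a log2 ratio of 3.21. Nnat had 60.8 CPM in imprinted-high (54.5 to 67.7) and 14.04 CPM in imprinted-low cells (11.0 to 17.7), with a log2 ratio of 2.12. The summed levels of each of the 4 stood far apart, as a choice of cells by their sum favours. Single cells overlapped on the sparser genes. Nnat had 0 UMIs in 47 of 129 imprinted-high and 83 of 129 imprinted-low cells, and Peg3 in 32 imprinted-high and 91 imprinted-low cells. Mest supplied 50.7% of the marker UMIs of imprinted-high cells, Peg10 26.6%, Peg3 14.3% and Nnat 8.44%, so the score leans on Mest and Peg10.

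The 4 genes were spread unevenly over the cells. A median imprinted-high cell held 14 Mest UMIs (highest 61), 7 of Peg10 (highest 57), 2 of Peg3 (highest 34) and 1 of Nnat (highest 33). A median imprinted-low cell held 2 of Mest (highest 10), 1 of Peg10 (highest 8) and none of Peg3 (highest 3) or Nnat (highest 6). The 5 cells richest in each gene held 12.6% of the side's Mest, 13.8% of its Peg10, 24.6% of its Peg3 and 26.0% of its Nnat. Of the 129 imprinted-high cells, 41 were in the library's top 20% for 1 marker gene, 60 for 2, 23 for 3 and 5 for all 4. Mest was the most abundant of the 4 in 89 of them, Peg10 in 22, Peg3 in 12 and Nnat in 6.

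**Figure D1:**
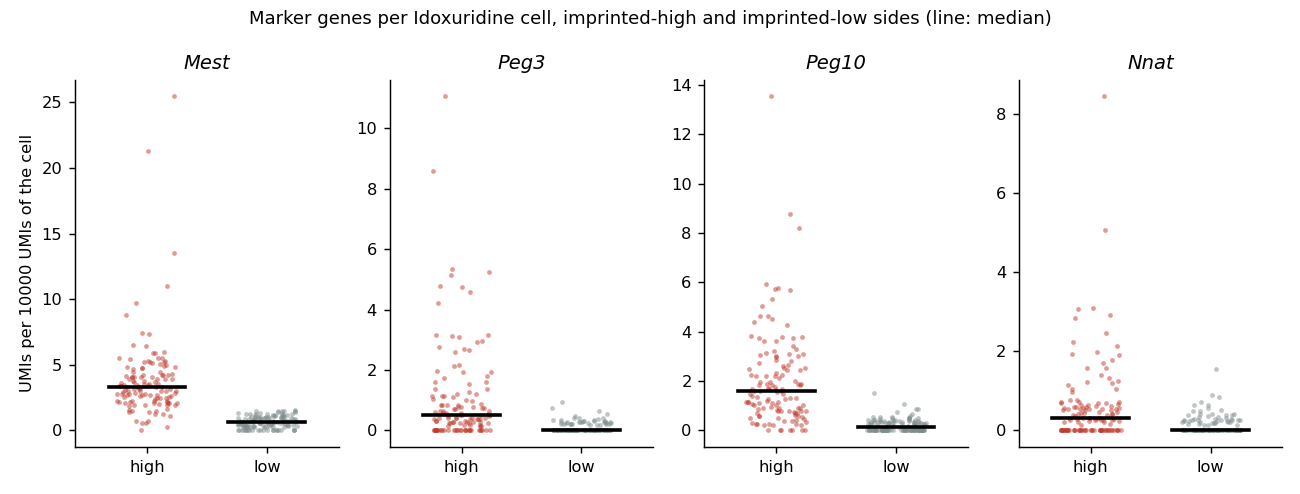
UMIs of each marker gene per 10000 UMIs of the cell (y axis) in imprinted-high (left) and imprinted-low (right) Idoxuridine cells, 129 points a side, with the median as a line. The median for Mest was 3.30 in imprinted-high and 0.590 in imprinted-low cells, and a few cells in each panel stand far above the rest.

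Whether the marker genes go together was described by ranking cells on 3 of them and reading the fourth, which then took no part in the ranking. Peg3 was at 77.1 CPM in the top 20% and 16.6 CPM in the bottom 20% of cells ranked by the other 3, a log2 ratio of 2.22 (1.87 to 2.57). Peg10 was at 130 CPM in the top and 63.4 CPM in the bottom 20%, a log2 ratio of 1.04 (0.84 to 1.23). Mest was at 263 CPM in the top and 156 CPM in the bottom 20%, a log2 ratio of 0.75 (0.63 to 0.88). Nnat was at 35.9 CPM in the top and 42.9 CPM in the bottom 20%, a log2 ratio of -0.26 (-0.54 to 0.03). Mest, Peg3 and Peg10 were thus higher in cells chosen by the other genes, and Nnat was not. Without the 5 cells of highest score the ratios were 2.10 for Peg3, 0.83 for Peg10, 0.61 for Mest and -0.30 for Nnat.

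The same ranking in DMSO cells gave log2 ratios of 0.64 for Peg3, 0.96 for Peg10, 0.25 for Mest and 0.66 for Nnat. Across the 648 Idoxuridine cells, Pearson's r of UMI shares was 0.46 for Mest with Peg10, 0.33 for Mest with Peg3 and 0.32 for Peg3 with Peg10. Without the 5 cells of highest score these were 0.20, 0.14 and 0.19. The pairs with Nnat lay between -0.04 and 0.05. These values are a description of sparse counts in cells of 1 library, and both shares in a pair have the cell's total as denominator.

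Over all other genes, a gene was counted as higher or lower in imprinted-high cells where its level differed by at least 0.5 log2 and the Poisson intervals of both sides did not overlap. Of 8263 genes with at least 100 UMIs over both sides, 308 were higher (3.73%) and 212 were lower (2.57%), and the median log2 ratio was 0.01. These shares are the background for each list below. Of the higher genes, 58 had under 50 UMIs in imprinted-low cells and so reached the minimum only through the imprinted-high side, and 20 of the lower genes had under 50 UMIs in imprinted-high cells. A gene of this kind had to have more UMIs on the side through which it passed, and those in the lists below are named as such. The sides were alike in depth, with medians of 38669 UMIs and 6552 genes in imprinted-high cells and 36880 UMIs and 6445 genes in imprinted-low cells. The median mitochondrial share was 2.80% in imprinted-high and 2.83% in imprinted-low cells, that of ribosomal protein genes 13.5% in high and 13.9% in low cells, and that of the nuclear RNA Malat1 0.365% in high and 0.385% in low cells. The libraries shared 2 cell barcodes, and no doublet caller was run.

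Other paternally expressed imprinted genes were the first group examined. Of 28 symbols in the list, 25 were in the gene table, 22 had a UMI and 13 reached 100 UMIs. Of those 13, 4 were higher in imprinted-high cells, none was lower, and the median log2 ratio was 0.21, against 0.01 over all genes. The 4 were Sgce, Ndn, Plagl1 and Slc38a4. Ndn and Slc38a4 reached the minimum only through the imprinted-high side, so the count and the median do not support a direction of the list.

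Sgce, which encodes epsilon-sarcoglycan and starts beside Peg10 on the other strand, was at 45.2 CPM (39.7 to 51.2) in imprinted-high cells and 25.1 CPM (20.9 to 29.9) in imprinted-low cells. Its log2 ratio was 0.85 (0.53 to 1.17), and no more than 8 UMIs came from any imprinted-high cell. Slc38a4, an amino acid transporter of the placenta and liver, was at 19.7 CPM in high and 8.70 CPM in low cells, a log2 ratio of 1.18 (0.66 to 1.72). Ndn (necdin, a growth-restraining MAGE family protein) was at 14.9 CPM in high and 7.12 CPM in low cells, a log2 ratio of 1.07 (0.49 to 1.68), from 82 UMIs in high and 36 in low cells. Plagl1, a zinc finger transcription factor, was at 32.8 CPM in high and 20.96 CPM in low cells, a log2 ratio of 0.65 (0.29 to 1.01).

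The other 9 measured members had log2 ratios between -0.21 (Mcts2) and 0.35 (Nespas). Snrpn, a splicing protein gene of the Prader-Willi region, was at 149 CPM in high and 124 CPM in low cells, a log2 ratio of 0.27 (0.12 to 0.42). The antisense RNA Kcnq1ot1 was at 287 CPM in high and 260 CPM in low cells (0.14), and Sfmbt2, a Polycomb-related gene, was at 87.8 CPM in both. Among the 9 members with 1 to 99 UMIs, Usp29, which shares its start region with Peg3, had 25 UMIs in imprinted-high and 6 in imprinted-low cells, a log2 ratio of 1.94 (0.62 to 3.52). Dlk1, a growth-regulating membrane protein, had 15 UMIs in high and 1 UMI in low cells, for a log2 ratio of 3.79 with an interval of 1.09 to 9.18. Nap1l5 had 24 UMIs in high and 9 in low cells, Peg12 had 24 in high and 12 in low cells, and Dio3 had 53 in high and 27 in low cells. Igf2, the fetal growth factor, had 6 UMIs in imprinted-high and 3 in imprinted-low cells and was too sparse to compare.

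Maternally expressed imprinted genes were described in the same way, since the score held none of them. Of 36 symbols, 35 were in the table, 31 had a UMI and 16 reached 100 UMIs. Of those 16, 4 were higher, none was lower, and the median log2 ratio was 0.14. The 4 were Cdkn1c, Phlda2, Ascl2 and Gnas, and the first 3 lie in the imprinted region of distal chromosome 7. The other measured members of this list in that region did not meet the rule. Their log2 ratios were 0.33 for Tspan32, 0.05 for Tssc4, -0.01 for Nap1l4 and -0.38 for Cd81.

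Cdkn1c, the cyclin-dependent kinase inhibitor p57, was at 40.4 CPM (35.3 to 46.1) in imprinted-high cells and 10.9 CPM (8.19 to 14.2) in imprinted-low cells, a log2 ratio of 1.89 (1.46 to 2.35). Few cells carried it: the median was 0 UMIs on both sides, and 5 cells held 42.3% of the 222 UMIs of the imprinted-high side. Without the 5 cells of highest score its log2 ratio was 1.47. Phlda2, which restrains placental growth, was at 107 CPM (98.4 to 116) in imprinted-high and 46.1 CPM (40.3 to 52.4) in imprinted-low cells, a log2 ratio of 1.21 (0.99 to 1.44), with 30.7% of the UMIs in 5 cells. Ascl2, a transcription factor of trophoblast progenitors, was at 24.6 CPM in high and 10.5 CPM in low cells, a log2 ratio of 1.23 (0.76 to 1.72). Gnas, which encodes the stimulatory G protein alpha subunit, was at 338 CPM in high and 238 CPM in low cells. Gnas has several start windows, and the gene count does not tell transcripts from different starts apart. Its log2 ratio of 0.50 (0.40 to 0.61) lay at the edge of the size rule, and it was -0.02 where cells were ranked by Peg3 alone.

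Members of the maternally expressed list with many counts did not all share this direction. Whether each of them is imprinted in these cells could not be read from counts without allele information. Meg3, a long non-coding RNA of the Dlk1-Dio3 region, was at 649 CPM in high and 639 CPM in low cells, a log2 ratio of 0.02 (-0.05 to 0.09). Cd81, a tetraspanin gene of the same distal chromosome 7 region as Cdkn1c, was at 637 CPM in high and 829 CPM in low cells, a log2 ratio of -0.38 (-0.45 to -0.32), which is short of 0.5. Igf2r was at -0.49 on the log2 scale (-1.02 to 0.04), from 55 UMIs in imprinted-high and 71 in imprinted-low cells. The RNA H19 had 3 UMIs in imprinted-high cells and 0 in imprinted-low cells. Several imprinted genes overlap a partner on the other strand (Nnat and Blcap, Mcts2 and H13, Kcnq1ot1 and Kcnq1, Nespas and Gnas, the ends of Mest and Copg2). Whether the counting used strand was not given in the sources used here, so reads of such pairs may be mixed.

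**Figure D2:**
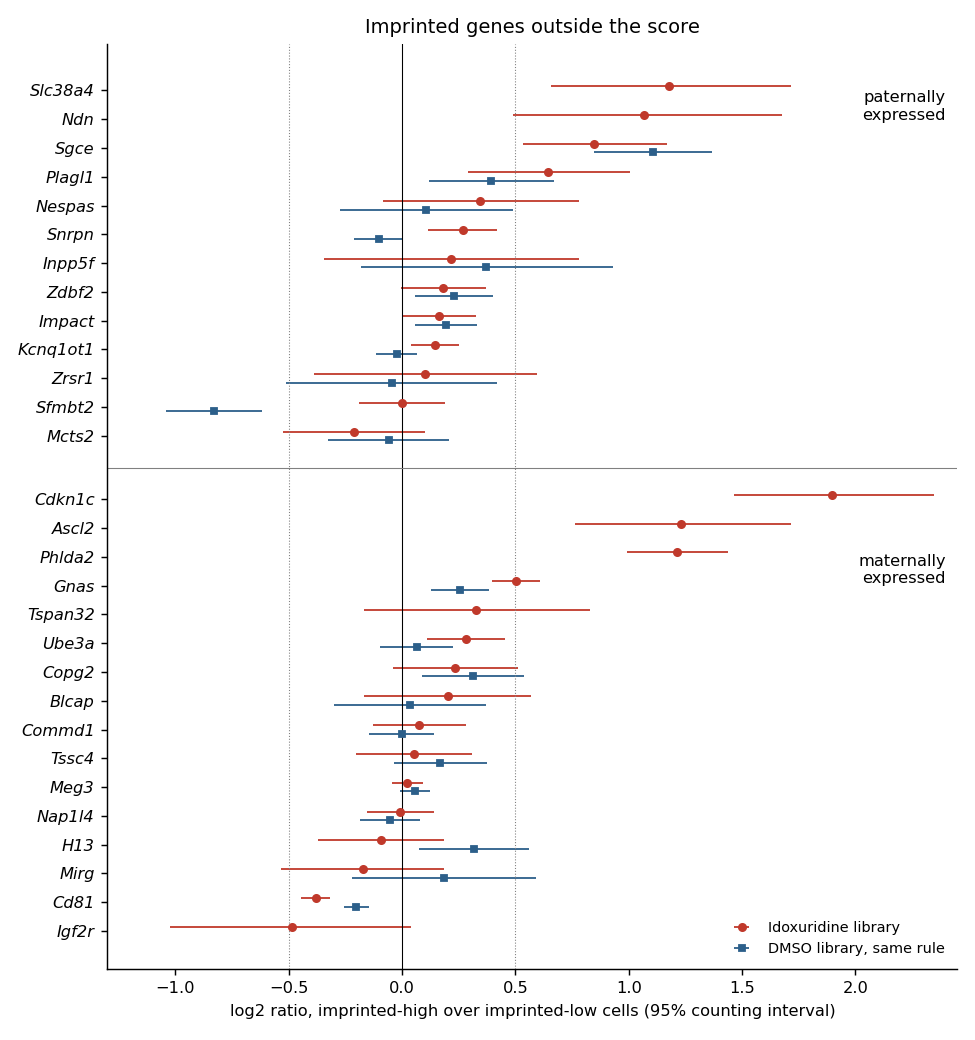
Log2 ratio of imprinted-high over imprinted-low cells (x axis, 95% counting interval) for imprinted genes outside the score with at least 100 UMIs over both Idoxuridine sides, in the Idoxuridine library (circles) and, where the gene also reached 100 UMIs, in the DMSO library under the same ranking (squares). Dotted lines mark 0.5 log2 either way. Cdkn1c has the highest Idoxuridine ratio (1.89), and Sgce lies above 0.5 in both libraries.

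Genes next to the markers were described as a group of their own. Within 500 kb of a marker gene lay 72 other genes, of which 19 reached 100 UMIs. Only Sgce was higher among those 19, and only Gm6792, near Peg3, was lower, at 32.2 CPM in imprinted-high and 48.4 CPM in imprinted-low cells (log2 ratio -0.59). The median over the 19 was 0.03. Sgce was the one gene near Peg10 to reach the minimum. Under it near Peg10 lay Ppp1r9a, a maternally expressed imprinted gene with 59 UMIs in imprinted-high and 25 in imprinted-low cells (log2 ratio 1.12, 0.42 to 1.86). The collagen gene Col1a2, also near Peg10, had 42 UMIs in imprinted-high and 7 in imprinted-low cells (2.47, 1.30 to 3.87), and Casd1 had 60 in imprinted-high and 32 in imprinted-low cells (0.79, 0.15 to 1.46). Copg2, next to Mest, had a log2 ratio of 0.24 (-0.04 to 0.51), and Blcap, around Nnat, 0.20 (-0.17 to 0.57).

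Single marker genes ranked the cells differently. Ranking by Peg10 alone gave 191 higher and 137 lower genes, by Mest alone 164 and 165, by Peg3 alone 148 and 102, and by Nnat alone 69 and 86. Cells with equal shares were taken in file order. Nnat had 0 UMIs in 47 imprinted-high and 83 imprinted-low cells, together more than the 129 places of a bottom 20%. The bottom side by Nnat was thus picked by file order among cells with 0 UMIs. Peg3 had 0 UMIs in 32 imprinted-high and 91 imprinted-low cells, so its ranking is limited too. Sgce had a log2 ratio of 1.82 between the top and bottom 20% by Peg10, at 57.6 CPM in the top and 16.3 CPM in the bottom 20%, but 0.42 by Peg3, 0.41 by Mest and -0.38 by Nnat. Cdkn1c had ratios of 2.15 by Peg3, 1.28 by Peg10, 1.14 by Mest and 0.61 by Nnat. Phlda2 was at 0.98 by Peg3, 0.92 by Peg10, 0.79 by Nnat and 0.32 by Mest. Ascl2 met the rule by Peg10 alone (0.92) and not by Mest (0.50), Peg3 (0.48) or Nnat (0.41). Plagl1 also met it by Peg10 alone (0.67), with 0.35 by Peg3, 0.31 by Mest and 0.02 by Nnat. Gnas met it by no single marker, with 0.49 by Mest, 0.34 by Peg10 and 0.26 by Nnat. Ranked by Nnat alone, the median log2 ratio was -0.08 for the other paternally expressed and -0.10 for the maternally expressed genes. The median over all genes in the Nnat ranking was -0.02, and no direction of either list is drawn from these small medians.

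**Figure D3:**
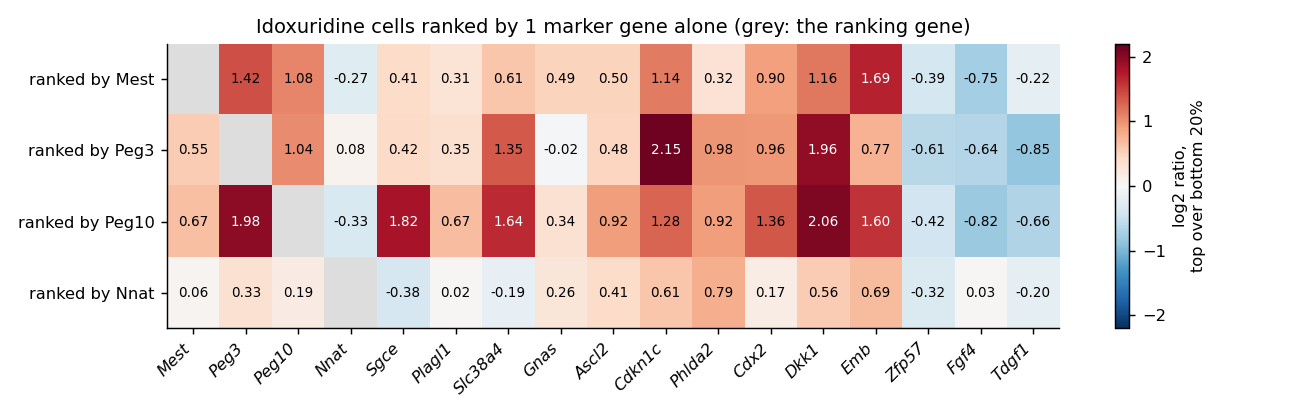
Log2 ratio of the top over the bottom 20% of Idoxuridine cells (colour and number) for selected genes (columns) when cells are ranked by 1 marker gene alone (rows). Sgce has 1.82 in the Peg10 row. The Nnat row has 0.06 for Mest, 0.33 for Peg3 (interval 0.06 to 0.61) and 0.19 for Peg10, none of which met the rule.

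Proteins that keep imprints were measured next. Of 13 genes, all of which reached 100 UMIs, 1 was higher, 1 was lower, and the median log2 ratio was 0.01. Zfp57 was the lower one, at 77.4 CPM (70.2 to 85.1) in imprinted-high cells and 126 CPM (117 to 136) in imprinted-low cells, a log2 ratio of -0.70 (-0.89 to -0.53). Its log2 ratio was -0.61 by Peg3 alone, -0.42 by Peg10, -0.39 by Mest and -0.32 by Nnat. Dppa3 (Stella), which shields methylation in the early embryo, was the higher one, at 153 CPM in imprinted-high and 87.2 CPM in imprinted-low cells (log2 ratio 0.81, 0.64 to 0.98). The Dppa3 ratio was -0.45 where cells were ranked by Mest alone. Trim28, the partner of ZFP57, was at 523 CPM in high and 596 CPM in low cells (-0.19), and the maintenance methyltransferase Dnmt1 at 120 CPM in high and 119 CPM in low cells (0.01).

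Of 10 measured DNA methylation enzymes and readers, Dnmt3a was higher and Apobec1 lower, with a median of 0.00. Dnmt3a, a methyltransferase that sets new marks, was at 43.7 CPM in imprinted-high and 25.9 CPM in imprinted-low cells (log2 ratio 0.75, 0.44 to 1.07). Dnmt3b, its relative, was at 112 CPM in high and 147 CPM in low cells (-0.39), and the demethylating enzyme Tet1 at 96.9 CPM in high and 124 CPM in low cells (-0.35), both short of the size rule. Apobec1, a cytidine deaminase, was at 12.4 CPM in high and 20.96 CPM in low cells (-0.76).

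Among genes that met the rule with at least 200 UMIs over both sides, the 12 highest log2 ratios spanned 1.30 to 2.15, and one belonged to Cdkn1c, described above. All 12 had under 100 UMIs in imprinted-low cells and so reached this minimum only through the imprinted-high side. Dkk1, a secreted inhibitor of Wnt signalling, was at 41.2 CPM in imprinted-high and 9.29 CPM in imprinted-low cells, a log2 ratio of 2.15 (1.69 to 2.63). Emb (embigin, an adhesion glycoprotein) was at 68.1 CPM in high and 17.2 CPM in low cells (1.99), and Cyp1a1, an enzyme induced through the aryl hydrocarbon receptor, at 57.4 CPM in high and 15.4 CPM in low cells (1.90). Lef1, a transcription factor of the Wnt pathway, was at 30.1 CPM in high and 9.10 CPM in low cells (1.72), and Wnt6, a Wnt ligand, at 38.4 CPM in high and 14.6 CPM in low cells (1.39). Emp1, a membrane protein, had a log2 ratio of 1.69, the transcription factor Sox4 1.67, Arhgdib 1.55, Khdc1a 1.42, Scrn1 1.40 and the homeobox gene Esx1 1.30.

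Some of these rested on few cells. The 5 richest imprinted-high cells held 42.2% of the side's Khdc1a, 40.5% of its Esx1, 39.0% of its Cyp1a1, 37.2% of its Dkk1 and 33.4% of its Emb. For Emp1 and Arhgdib this share was 17.2% and 17.3%. Cyp1a1 was not higher in every 1-marker ranking, with a log2 ratio of -0.49 by Peg3 alone and -0.79 by Nnat alone. Khdc1a and Scrn1 were at -0.47 and -0.34 by Nnat alone.

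By the same minimum, the 12 lowest log2 ratios spanned -1.40 to -0.88, and 4 of them (Fbxo2, 9530053A07Rik, Aard and Myof) had under 100 UMIs in imprinted-high cells. Fbxo2, a ubiquitin ligase subunit that binds glycoproteins, was at 11.7 CPM in imprinted-high and 30.8 CPM in imprinted-low cells (log2 ratio -1.40). Rtkn was at 24.95 CPM in high and 63.5 CPM in low cells (-1.35). Jam2, a junction adhesion protein, was at 47.4 CPM in high and 103 CPM in low cells (-1.13), and Fgf4, the growth factor by which pluripotent cells start differentiation, at 40.6 CPM in high and 85.2 CPM in low cells (-1.07). The others were 9530053A07Rik, Aard, Myof, 1700007K13Rik, Ctc1, the TGF-beta co-receptor Eng, Def6 and the mitochondrial creatine kinase Ckmt1. Ranked by Nnat alone, Fbxo2 was at 0.62 and Fgf4 at 0.03.

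Trophectoderm markers define the outer layer of the blastocyst, from which the placenta forms. Of 13 genes, 8 reached 100 UMIs, of which 5 were higher and none lower, with a median log2 ratio of 1.23. Cdx2, the transcription factor that sets trophectoderm fate, was at 49.5 CPM (43.8 to 55.8) in imprinted-high cells and 20.96 CPM (17.2 to 25.4) in imprinted-low cells (log2 ratio 1.24, 0.91 to 1.58). Gata2 was at 34.4 CPM in high and 14.04 CPM in low cells (1.29), Krt18 at 23.7 CPM in high and 10.1 CPM in low cells (1.23), Esx1 at 30.6 CPM in high and 12.5 CPM in low cells (1.30), and Ascl2, also an imprinted gene, had a log2 ratio of 1.23. Krt8 (0.08), Tead4 (-0.22) and Tfap2c (0.50, intervals apart but short of the rule) did not pass.

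The defining trophectoderm markers Gata3 (6 UMIs in imprinted-high and 0 in imprinted-low cells) and Elf5 (4 UMIs in high and 2 in low cells) were close to 0, and Eomes had 36 UMIs in high and 34 in low cells. Summed over the list, a median imprinted-high cell had 3.79 UMIs per 10000 (0.641 to 20.98) and a median imprinted-low cell 2.65 (0.412 to 12.4), so the sides overlapped. The part of these markers in the other differences was not tested.

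Other lineage lists held few measured genes. In primitive endoderm, 3 of 18 genes reached 100 UMIs. Serpinh1, a collagen chaperone, was at 138 CPM in high and 66.0 CPM in low cells (log2 ratio 1.06), Lamb1 was at 28.1 CPM in high and 12.7 CPM in low cells (1.15), and Sparc at 341 CPM in high and 361 CPM in low cells (-0.08). Gata4 had 5 UMIs on each side and Sox17 had 35 in imprinted-high and 8 in imprinted-low cells. In the mesendoderm list, Sp5, a Wnt target, was at 369 CPM in high and 184 CPM in low cells (log2 ratio 1.01, 0.89 to 1.12), and T (Brachyury) at 26.8 CPM in high and 4.55 CPM in low cells (2.56, 1.92 to 3.26), from 147 UMIs in high and 23 in low cells. T reached the minimum of 100 UMIs only through the imprinted-high side.

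Of 15 measured epithelial genes, 7 were higher and none lower (median 0.32), among them the claudins Cldn6 (80.5 CPM in high and 43.1 CPM in low cells, log2 ratio 0.90), Cldn7 (0.86) and Cldn3 (0.73), and Epcam (310 CPM in high and 213 CPM in low cells, 0.54). Cdh1, the main adhesion molecule of these cells, was at 115 CPM in high and 127 CPM in low cells (-0.15). Among 18 fibroblast markers, 4 reached 100 UMIs, none passed in either direction, and the median was -0.07, with Vim at 461 CPM in high and 381 CPM in low cells (0.27). Of the fibroblast collagens, Col1a2, near Peg10, is given above, and Col1a1 had 8 UMIs in high and 11 in low cells. Among genes of cells that resemble the 2-cell embryo, Gm5662 had 97 UMIs in high and 14 in low cells, 70.1% of the imprinted-high UMIs in 5 cells, and reached the minimum only through that side, while Eif1a was at -0.02 and the Zscan4 genes had 1 UMI at most.

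Of 15 general pluripotency genes, all measured, 4 were lower and none higher (median -0.20). Tdgf1, a Nodal co-receptor, was at 275 CPM (261 to 289) in imprinted-high and 489 CPM (470 to 509) in imprinted-low cells, a log2 ratio of -0.83 (-0.93 to -0.74). Sox2 was at 133 CPM in high and 221 CPM in low cells (-0.74), Dppa5a at 764 CPM in high and 1134 CPM in low cells (-0.57) and Zfp42 (Rex1) at 558 CPM in high and 794 CPM in low cells (-0.51). Pou5f1 (Oct4), the core pluripotency factor, was at 1499 CPM in high and 1575 CPM in low cells (-0.07).

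Of 22 measured naive pluripotency genes, 6 were lower and 2 higher (median -0.20). Nanog was at 163 CPM in high and 269 CPM in low cells (-0.72), Tbx3 at 58.7 CPM in high and 94.1 CPM in low cells (-0.68) and Nr5a2 at 34.2 CPM in high and 58.5 CPM in low cells (-0.77), and Jam2, Fgf4 and Zfp42 were the others. Fgfbp1, a secreted carrier of fibroblast growth factors, went the other way, at 302 CPM in high and 138 CPM in low cells (log2 ratio 1.13, 1.00 to 1.26), as did Dppa3. Of 9 measured formative or primed genes, 4 were higher and none lower (median 0.49): Lef1, Cldn6, Dusp6 (26.8 CPM in high and 15.4 CPM in low cells, 0.80) and Dnmt3a. Lef1 reached the minimum of 100 UMIs only through the imprinted-high side. The defining primed marker Fgf5 had 1 UMI in imprinted-high and 3 UMIs in imprinted-low cells, Otx2 had 16 in high and 25 in low cells, and Pou3f1 had 3 in high and 1 in low cells.

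Over quintiles of Idoxuridine cells, from lowest to highest score, Cdx2 was at 20.96, 18.0, 28.7, 39.3 and 49.5 CPM. Sgce followed at 25.1, 31.8, 38.6, 41.0 and 45.2 CPM. Both were higher with each quintile from the second upward. Tdgf1 was at 489, 447, 390, 424 and 275 CPM, and Zfp57 at 126, 114, 105, 109 and 77.4 CPM, with the widest gap below the top quintile. Cdkn1c was at 10.9, 12.3, 17.3, 21.1 and 40.4 CPM and Phlda2 at 46.1, 42.4, 65.8, 58.6 and 107 CPM. Dppa3 had no steady order, at 87.2, 106, 82.2, 79.8 and 153 CPM.

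**Figure D4:**
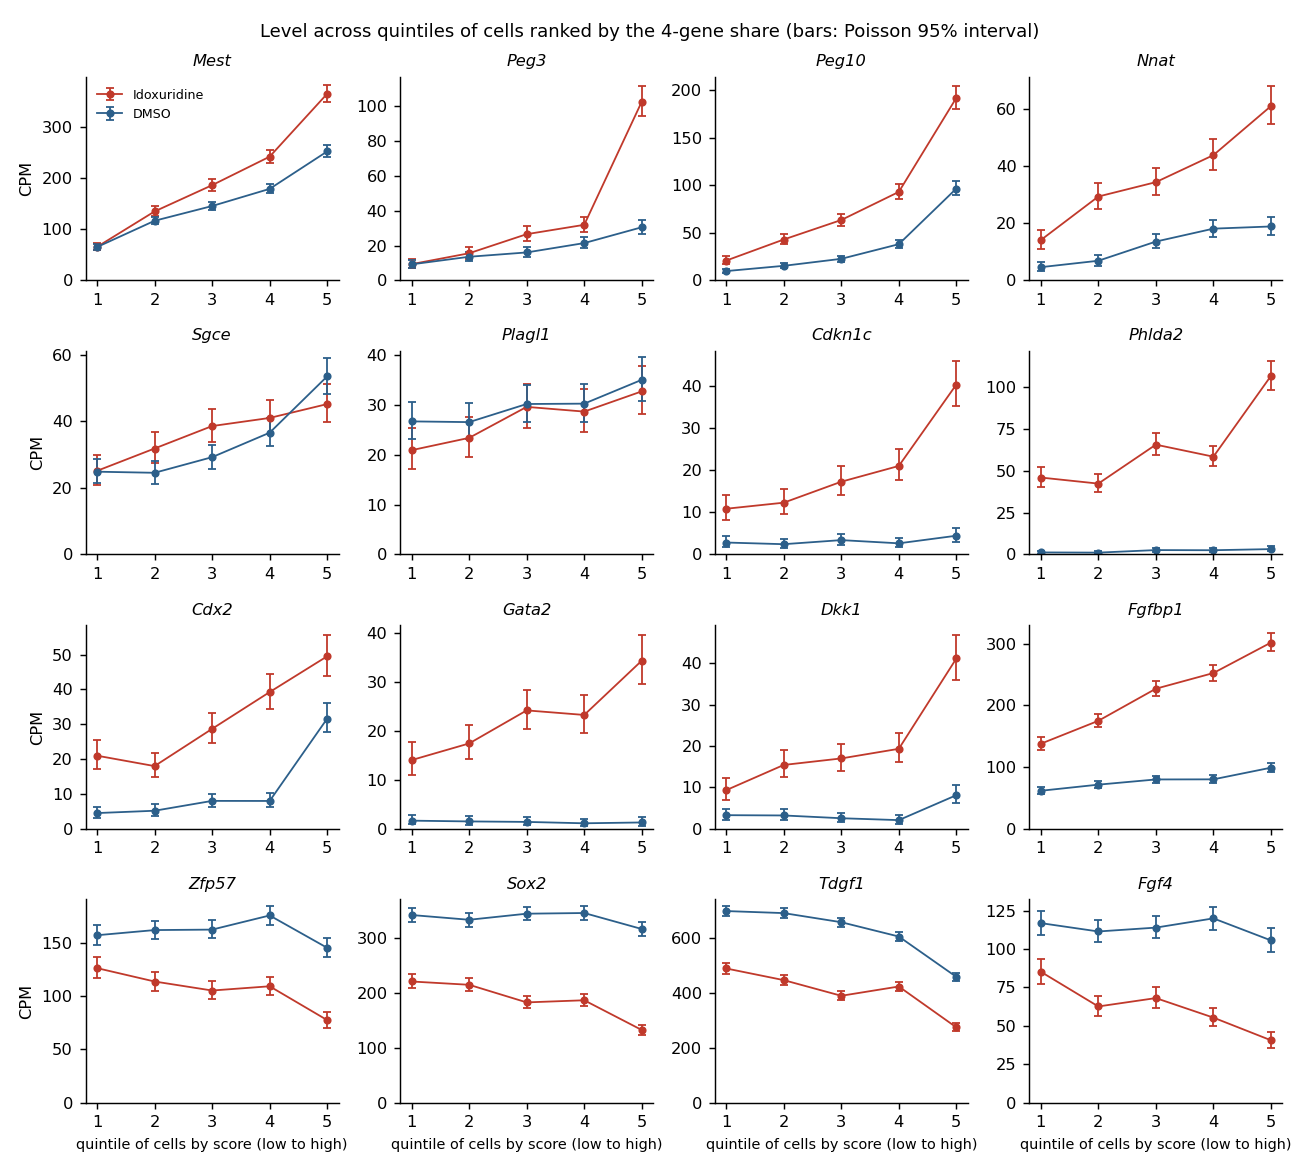
CPM (y axis, bars are Poisson 95% intervals) in the 5 quintiles of cells ranked from low to high by the share of UMIs in the 4 marker genes (x axis), for Idoxuridine and DMSO cells. Cdx2, Sgce and Fgfbp1 are highest and Zfp57, Sox2, Tdgf1 and Fgf4 lowest in the top quintile of Idoxuridine cells.

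Germline genes held down by promoter methylation in most tissues also differed. Of 10 measured, 5 were higher and 1, Zfp42, was lower (median 0.54). Dazl, an RNA-binding protein of germ cells, was at 123 CPM in imprinted-high and 65.5 CPM in imprinted-low cells (log2 ratio 0.92, 0.72 to 1.11), with 36.0% of its UMIs in 5 cells. Tex19.1 was at 179 CPM in high and 96.5 CPM in low cells (0.89), Ddx4 (Vasa) at 16.8 CPM in high and 8.11 CPM in low cells (1.05) and Sycp3 at 35.7 CPM in high and 22.7 CPM in low cells (0.65). Ddx4 reached the minimum only through the imprinted-high side. Ranked by Nnat alone, Dazl was at -0.40 and Ddx4 at -0.25.

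Damage response and growth lists held genes in both directions. Of 33 measured p53 targets, 3 were higher and 3 lower (median -0.18). Perp was at 92.5 CPM in imprinted-high and 52.2 CPM in imprinted-low cells (log2 ratio 0.83) and Phlda1 at 68.3 CPM in high and 37.4 CPM in low cells (0.87), while the translesion polymerase gene Polk was at 8.93 CPM in high and 18.0 CPM in low cells (-1.01). Polk and Epha2, another of the 3, reached the minimum only through the imprinted-low side. Cdkn1a (p21) was at 276 CPM in high and 241 CPM in low cells (0.20) and Mdm2 at 155 CPM in high and 187 CPM in low cells (-0.27). In the list of insulin-like growth factor and growth genes, 1 of 12 was higher (Igfbp4, 0.74) and 1 lower (Mtor, -0.61). Of 20 cholesterol synthesis genes, 2 were higher, 18 had a ratio above 0, and the median was 0.18. Of 14 housekeeping genes, 18 glycolysis genes, 12 mitochondrially encoded genes and 95 ribosomal protein genes, none passed, with medians of -0.02, -0.03, -0.01 and -0.05.

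**Figure D5:**
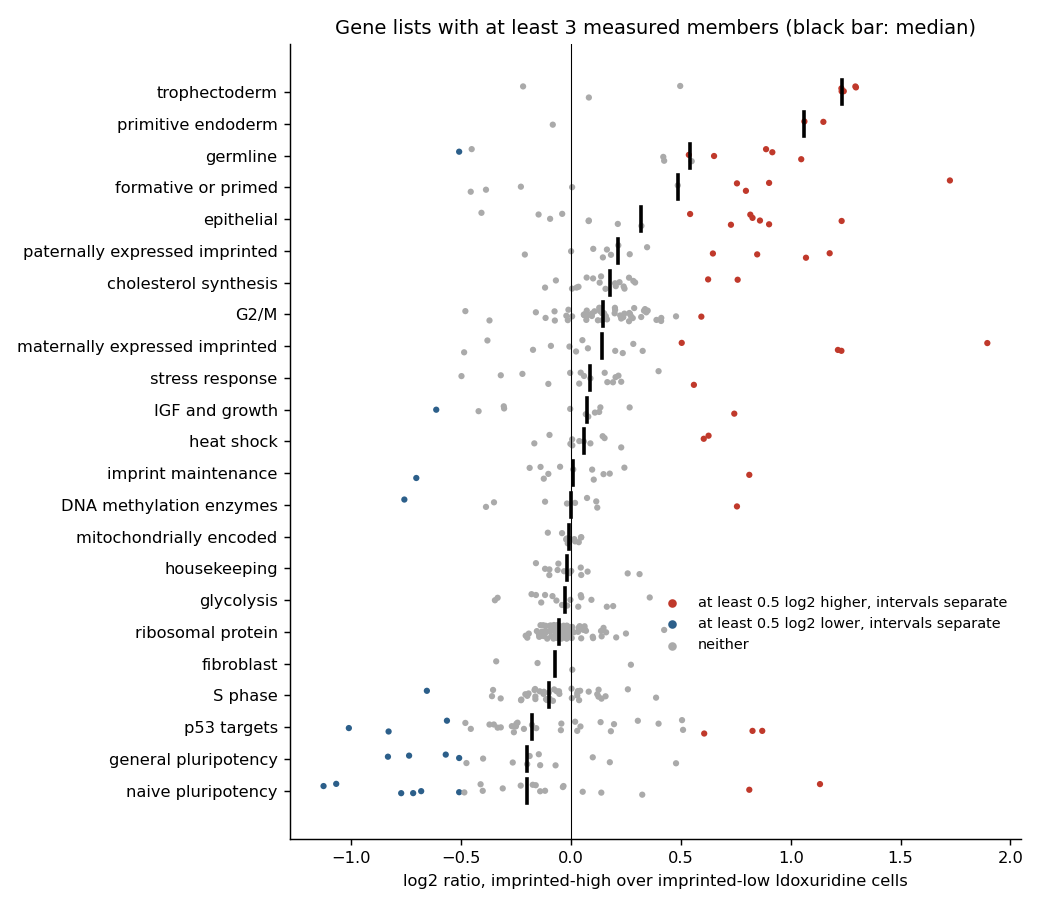
Log2 ratio of imprinted-high over imprinted-low Idoxuridine cells (x axis) for each gene with at least 100 UMIs (points) in lists with at least 3 such genes (rows), with the list median as a black bar. The lists of nuclear RNAs and immediate early genes also held at least 3 such genes and are not shown. Trophectoderm has a median of 1.23, and general and naive pluripotency lie lowest, both at -0.20.

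Cell cycle shares lay close together. A median imprinted-high cell had 1.15% of UMIs in the G2/M list (0.291% to 2.05%), and a median imprinted-low cell 1.03% (0.289% to 2.06%). The S phase shares were 0.667% in high and 0.674% in low cells. Of 54 G2/M genes 1 was higher, 45 had a ratio above 0, and the median was 0.14. In DMSO cells the G2/M medians lay the other way, at 1.04% in imprinted-high and 1.16% in imprinted-low cells. Ranking within quintiles of the G2/M share gave 275 higher and 177 lower genes, of which 235 and 141 were among those above.

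Applied to the DMSO library, the ranking gave 122 of 8411 genes higher (1.45%) and 74 lower (0.88%) in imprinted-high cells. The DMSO sides lay closer in score, with median marker shares of 0.0367% in high and 0.00896% in low cells. Both libraries called 55 genes higher, which is 17.9% of the Idoxuridine list and 45.1% of the DMSO list. Both called 17 genes lower, 8.02% of the Idoxuridine and 23.0% of the DMSO list. Of the 308 genes higher in Idoxuridine cells, 233 had enough UMIs in DMSO cells. The libraries share no cells, but the same 4 genes ranked both. No difference between the libraries was tested.

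Among the genes called in both libraries, Cdx2 was at 31.6 CPM in imprinted-high and 4.46 CPM in imprinted-low DMSO cells, a log2 ratio of 2.83. Sgce was at 53.5 CPM in high and 24.9 CPM in low DMSO cells (1.11), Lef1 at 21.9 CPM in high and 4.86 CPM in low cells (2.17), Emp1 at 32.6 CPM in high and 12.02 CPM in low cells (1.44), Dnmt3a at 16.2 CPM in high and 8.65 CPM in low cells (0.90), Tdgf1 at 459 CPM in high and 698 CPM in low cells (-0.61) and Jam2 at 76.2 CPM in high and 116 CPM in low cells (-0.60). Others met the rule in the Idoxuridine library and not in the DMSO library. Zfp57 was at 145 CPM in imprinted-high and 157 CPM in imprinted-low DMSO cells (-0.11), Sox2 at 317 CPM in high and 342 CPM in low cells (-0.11), and Nanog had a log2 ratio of -0.10. Gata2 stood at 1.25 CPM in high and 1.62 CPM in low DMSO cells, Phlda2 at 3.205 CPM in high and 1.22 CPM in low cells and Cdkn1c at 4.46 CPM in high and 2.84 CPM in low cells, all under 100 UMIs over both DMSO sides. The imprinted list medians in DMSO cells were 0.11 for the other paternally expressed genes (11 measured, Sgce higher and Sfmbt2 lower at -0.83) and 0.12 for the maternally expressed genes (12 measured, none called).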

How the data were processed

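Single-cell RNA libraries of 2 cultures were made with 10x 3′ V2 chemistry, per the labels. Per the submitters' processing notes, Cell Ranger 2, Seurat and build mm10 played a part. What the authors deposited is a matrix of raw UMI counts for 27998 genes by cell. The cell-calling step, annotation release, use of strand and any doublet removal are not given in the sources used here. Barcodes above a fixed minimum of UMIs were used (648 of 742 Idoxuridine and 764 of 811 DMSO cells, with at least 23504 UMIs each in the Idoxuridine library). The treatment label set each library's group.

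UMIs were summed over the cells of each side (5489958 imprinted-high and 5057043 imprinted-low UMIs) and scaled to CPM with exact Poisson intervals, and log2 ratios have exact conditional binomial intervals. These cover counting error only, and with 1 library no p-value is given. Where a sum was 0, a floor of 3 counts on that side was used for ratios. Marker genes were left out of all counts and list medians. Coordinates are from GENCODE M21 (27645 of 27998 identifiers matched). Named genes were the 12 highest and 12 lowest ratios among called genes with at least 200 UMIs, all imprinted genes and genes within 500 kb of a marker gene with at least 100 UMIs, and up to 4 members of each other list by size of ratio, called ones first. Further list members are given as context and were chosen after their values were seen. The marker genes, lists and measures were chosen with earlier results of these data known. The counting rule was run on simulated Poisson counts. These hold no spread between cells, so that run cannot show how often the rule calls genes wrongly in these data. Python 3.11.15, numpy 2.4.6, scipy 1.17.1, pandas 2.3.3, matplotlib 3.10.9, R 4.3.3 and edgeR 4.0.16 (TMM scaling only) were used. Alternatives changed the cells per side, the depth and UMI limits, the ranking, the scaling, the genes in the score and the library.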

Additional observations from a re-analysis of the deposited data

Results flagged for a closer look

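Among genes with at least 100 UMIs over both sides in each library, 2 differed by at least 0.5 log2 with separate intervals but in opposite directions in the 2 libraries, and the difference was not tested. Bicd1, a dynein adaptor gene, had a log2 ratio of imprinted-high over imprinted-low cells of -0.76 in the Idoxuridine library and 0.64 in the DMSO library. Nubpl, an assembly factor of mitochondrial complex I, had -0.67 in the Idoxuridine library and 0.53 in the DMSO library. Bicd1 rested on 54 UMIs in imprinted-high and 84 in imprinted-low Idoxuridine cells, and Nubpl on 180 UMIs in imprinted-high and 263 in imprinted-low Idoxuridine cells.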

How the results depend on the processing

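Of 308 higher and 212 lower genes, the counts were 202 and 120 with cells thinned to the minimum depth, 60 and 57 at 500 UMIs per gene, 499 higher with no minimum, 195 and 132 without Peg10 in the score, 131 lower without Mest, and 122 and 74 in the DMSO library. By 1 marker alone they were 164 higher (Mest), 148 and 102 (Peg3), 191 and 137 (Peg10) and 69 and 86 (Nnat). The other settings gave 259 to 371 higher and 162 to 284 lower. Of these calls, 167 (top and bottom 10%) to 308 higher and 88 (Mest alone) to 212 lower genes were among those of the main comparison. The top and bottom 10% gave 313 higher and 211 lower genes, so lists of similar size held partly different genes. Nnat alone turned the list medians to -0.075 (paternal) and -0.10 (maternal). Left-out ratios were, for Mest, 0.25 in DMSO cells, 1.15 by the top and bottom 10%, 0.61 by 25% and 0.61 without the 5 highest-score cells; for Peg3, 0.64 in DMSO cells and 2.71 by 10%; for Peg10, 1.61 by 10% and 0.83 without those 5 cells; for Nnat, 0.66 in DMSO cells.

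Of 155 named genes, 71 were counted as higher or lower. In the settings where they kept enough UMIs (75 to 155 named genes), the log2 ratio of these turned in sign only with 1-marker rankings and the DMSO library. Of the 84 others, 24 of 78 turned in DMSO cells, among them Snrpn to -0.10, and 41 of 84 by Nnat alone. By Nnat alone the counted genes that turned were Cyp1a1 -0.79, Khdc1a -0.47, Scrn1 -0.34, Fbxo2 0.62, Fgf4 0.025, Sgce -0.38, Ndn -0.56, Slc38a4 -0.19, Apobec1 0.10, Dppa5a 0.22, Perp -0.51, Phlda1 -0.034, Ddx4 -0.25, Dazl -0.40, Jun -0.62, Jund -0.039, Hsph1 -0.0030 and Mtor 0.20. By Peg3 alone they were Cyp1a1 -0.49, Gnas -0.024 and Igfbp4 -0.055, by Mest alone Dppa3 -0.45, and by Peg10 alone Sc5d -0.023 and Gm6792 0.0060. In DMSO cells they were Ctc1 0.044, Polk 0.11 and Dazl -0.081. The causes were not tested. The 1-marker rankings and the exclusion of 5 cells were chosen after seeing the data. No paired analysis was possible because the labels give no replicate numbers and each treatment has 1 library. Sparse marker counts limit the ranking of single cells, most of all by Nnat alone, where file order chose the bottom side among cells with 0 UMIs.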
